A study of Mus musculus with 18 samples.

Results

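The apical ectodermal ridge is the thickened rim of ectoderm at the tip of the limb bud, and its fibroblast growth factors (Fgfs) keep the bud growing out. The 10 genes described here are the ridge ligands Fgf4, Fgf8, Fgf9 and Fgf17, the mesenchymal ligand Fgf10, and the transcription factors of the ridge and its ectoderm Sp6, Sp8, Sp9, Bhlha9 and Trp63. They were chosen by symbol, with earlier results of these data known, and they are 10 of the 14686 genes listed in any of 3 deposited expression tables. All 10 were listed in the e11.0 and e11.5 tables, while Fgf17 and Sp9 were not listed in the CD1 table, which leaves 8 genes listed in all 3 tables.

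RNA was sequenced from mouse limb buds in 6 groups of 3 libraries each. The groups were hindlimbs of CD1 wild type embryos at e11.0 and forelimbs of CD1 wild type embryos at e10.5, then Pitx1 null and Pitx1 wild type hindlimbs, both on BALB/c, at e11.0 and again at e11.5. Pitx1 is the homeodomain factor of hindlimb identity, and the labels do not say how its null allele was made. Ribosomal depletion was used for library preparation up to e11.0, and mRNA enrichment at e11.5. A single sequencing run held replicates 1 and 2 of all groups, while the third replicates of the Pitx1 groups were sequenced in other runs, that of e11.5 unstranded, and those of CD1 have no run named. Whether replicates stem from different litters or pools is not stated, and the p-values therefore reflect library-to-library spread, part of which may be technical.

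Ridge and mesenchyme depend on each other. Fgf10 from the mesenchyme signals to the ectoderm through the Fgfr2b form of its receptor and brings about a ridge that makes Fgf8, and the ridge Fgfs signal back to the mesenchyme through Fgfr1 and other receptors. Canonical Wnt signalling in the ectoderm, with Sp6 and Sp8 downstream of it, is needed for Fgf8, while Fgf4 is kept on by Gremlin 1, the Bmp antagonist that mesenchyme makes in response to Shh. Trp63 is needed for the surface ectoderm itself, and mutations at BHLHA9 and in TP63 cause limb malformations in people.

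Levels are counts per 1000000 reads on listed genes (CPM). The libraries held an implied 17.4 to 53.6 M reads on listed genes (M, 1000000), at which 1 read was worth at most 0.0575 CPM, and the lowest value of any of the 10 genes was Fgf17 at 0.617 CPM, or 12 reads, in replicate 1 of Pitx1 wild type e11.0. No molecular identifiers marked the reads, and such limits cover counting error alone. A fold change here is a difference of log2(CPM + 1), which makes changes of weakly expressed genes look smaller, and adjusted p-values come from limma with a term for the run, over all genes of a table, with a threshold of 0.05. The run term mattered: without it limma called 0 members in any comparison, with 4 lower in CD1, 0 at e11.0 and 3 higher and 1 lower at e11.5 at an unadjusted p under 0.05. Pitx1, the targeted gene, was at 22.9, 19.3 and 21.3 CPM in Pitx1 null e11.0 libraries, against 136, 114 and 122 CPM in Pitx1 wild type ones. At e11.5 it was at 72.1, 78.8 and 88.6 CPM in Pitx1 null, against 319, 330 and 364 CPM in Pitx1 wild type. Every library labelled Pitx1 null was below every wild type library of its stage, though transcript remained in all of them.

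In GENCODE M21 (GRCm38) the ligand genes are spread over 4 chromosomes: Fgf4 at chr7:144847367-144865243, Fgf8 at chr19:45736798-45742915, Fgf9 at chr14:58070547-58112720, Fgf17 at chr14:70636203-70642268 and Fgf10 at chr13:118669791-118792115. Of the transcription factor genes, Bhlha9 lies at chr11:76672470-76673676 and Sp6, on the same chromosome, at chr11:97013394-97024734, with Sp8 at chr12:118846329-118852576, Sp9 at chr2:73271925-73284706 and Trp63 at chr16:25683763-25892102. RefSeq promoter windows (GRCm38.p6, 250 bases before to 50 bases after a start, 300 bases) were available for 6 of the 10 genes. Those of Bhlha9 and Fgf10, the genes that stood higher in Pitx1 null at e11.5 under the most settings, of Sp8, which also rose there, and of Fgf9, which fell there, are given here, 5′ to 3′ on the plus strand. They lie at chr11:76672220-76672519 (Bhlha9), chr13:118714449-118714748 (Fgf10), chr12:118846079-118846378 (the first of the Sp8 windows) and chr14:58072436-58072735 (Fgf9). Capitals mark matches to 5 motifs searched on both strands, none of which overlap here. The Pitx type of homeodomain motif was searched as TAATCC. A T-box site core was searched as GGTGTGA, and the GC box that Sp factors bind as GGGCGG. The core of Tcf and Lef sites was searched as CTTTGA, and that of the TATA box as TATAAA.
Bhlha9: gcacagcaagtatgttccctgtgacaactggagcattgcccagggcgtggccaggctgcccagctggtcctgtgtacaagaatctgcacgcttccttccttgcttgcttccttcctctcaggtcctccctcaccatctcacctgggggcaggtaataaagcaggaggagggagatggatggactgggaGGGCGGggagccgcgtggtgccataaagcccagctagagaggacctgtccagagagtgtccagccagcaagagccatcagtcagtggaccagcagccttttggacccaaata
Fgf10: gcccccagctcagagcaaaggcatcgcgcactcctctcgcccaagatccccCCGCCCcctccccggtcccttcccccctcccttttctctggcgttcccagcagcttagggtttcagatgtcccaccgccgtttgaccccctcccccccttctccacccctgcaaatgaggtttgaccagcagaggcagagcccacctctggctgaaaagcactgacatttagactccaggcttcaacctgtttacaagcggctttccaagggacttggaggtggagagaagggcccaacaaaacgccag
Sp8: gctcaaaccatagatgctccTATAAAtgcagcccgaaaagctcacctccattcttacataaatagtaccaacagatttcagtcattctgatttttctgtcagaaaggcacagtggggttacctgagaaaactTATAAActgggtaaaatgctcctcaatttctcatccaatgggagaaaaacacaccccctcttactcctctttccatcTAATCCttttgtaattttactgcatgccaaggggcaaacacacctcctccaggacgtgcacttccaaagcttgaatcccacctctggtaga
Fgf9: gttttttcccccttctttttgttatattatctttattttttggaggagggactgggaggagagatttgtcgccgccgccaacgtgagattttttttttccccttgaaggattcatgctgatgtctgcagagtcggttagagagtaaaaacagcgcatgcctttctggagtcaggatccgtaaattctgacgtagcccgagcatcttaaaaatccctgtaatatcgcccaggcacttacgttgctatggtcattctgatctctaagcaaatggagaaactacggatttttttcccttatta

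The Bhlha9 window held 1 GC box at base 189, 62 bases before the start, and the Fgf10 window held 1 on the reverse strand at base 52. The Sp8 window shown held TAATCC at base 210, 41 bases before the start, and TATAAA in 2 places. The other Sp8 windows, at chr12:118846983-118847282 and chr12:118847309-118847608, held neither. The former held 1 GC box and 1 match to CTTTGA, and the latter held none of the 5 motifs. The Fgf9 window held none of the 5 motifs. Of 32851 RefSeq promoter windows of this length, 7.06% held TAATCC, 35.7% the GC box and 13.6% TATAAA. The GC box is thus common, and TAATCC, the least frequent of these, was still found in 2320 windows. They describe letters and not sites of binding, and a window without a match says only that these letters are not in it.

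Per kilobase of exon, Fgf8 had the highest level of the listed genes in all 6 groups and Bhlha9 the second highest. Fgf8, the ridge ligand that marks the whole ridge, was at 61.2 ± 30.0 CPM per kb in Pitx1 null and 51.9 ± 27.1 in Pitx1 wild type at e11.0 (SD, n = 3). At e11.5 it was at 29.7 ± 7.02 CPM per kb in Pitx1 null and 21.4 ± 4.50 in Pitx1 wild type. In CD1 it was at 26.4 ± 3.01 CPM per kb in hindlimb and 22.0 ± 1.98 in forelimb. Bhlha9, a basic helix-loop-helix factor of the ridge, stood at 29.3 ± 16.8 CPM per kb in Pitx1 null and 17.99 ± 10.2 in Pitx1 wild type at e11.0, where replicate 3 widened the spread of both genes.

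The other ligands of the ridge were far below Fgf8. In Pitx1 wild type at e11.5, for example, Fgf9 was at 1.18 ± 0.126 CPM per kb, Fgf17 at 0.654 ± 0.0568 and Fgf4 at 0.467 ± 0.244, and the order of Fgf17 and Fgf4 was not larger than their spread. In the same group Fgf10 was at 6.27 ± 1.35, Trp63 at 5.16 ± 0.215, Sp6 at 4.20 ± 3.23 and Sp8 at 3.72 ± 0.403 CPM per kb, and neighbours in that order again lay within their spread. Sp9, a close relative of Sp8, was at 0.719 ± 0.0779 CPM per kb. Tables were normalized separately and e11.5 libraries were made by another method, so no level is compared between stages.

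**Figure D1:**
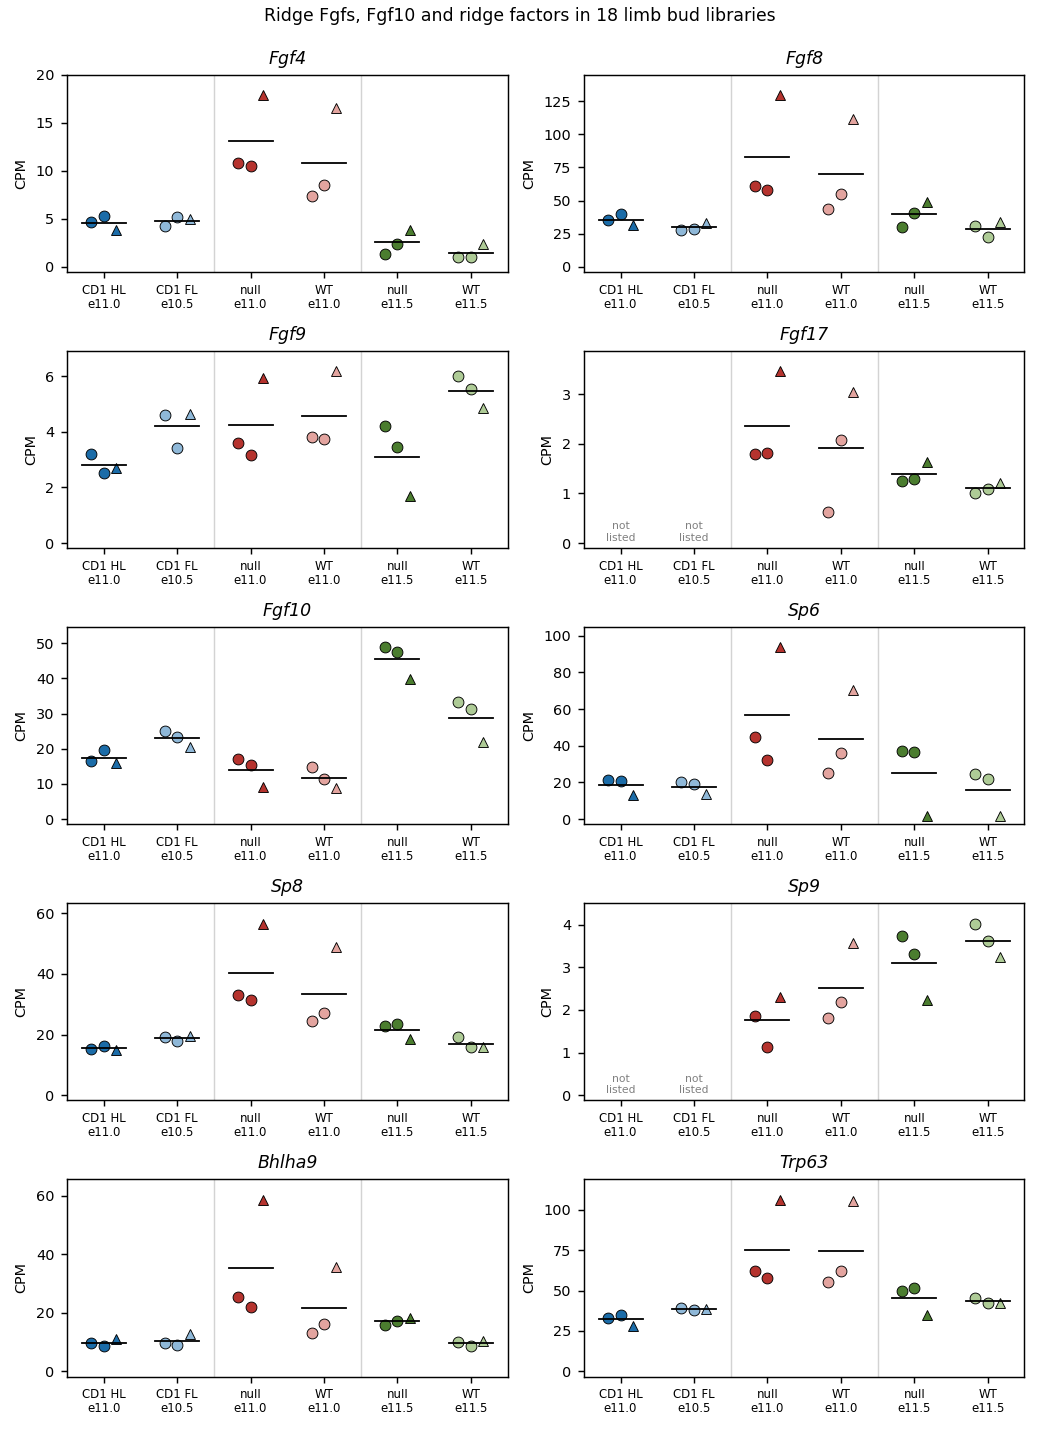
CPM of the 10 genes in each of 18 libraries (y axis, linear), by group (x axis: CD1 HL and FL, hindlimb and forelimb; null and WT, Pitx1 null and wild type hindlimb), with circles for replicates 1 and 2, triangles for replicate 3 and lines for group means. Replicate 3 stands at the top for ectodermal genes at e11.0 in both genotypes, with Fgf8 at 129 and 112 CPM, and at the bottom for Sp6 at e11.5, at 1.81 and 1.90 CPM.

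At e11.0, Bhlha9 and Sp8 were higher in Pitx1 null hindlimbs than in Pitx1 wild type, and no member was called lower without further scaling. In CPM, 0 of the 10 were without overlap between the genotypes, against 18.5% of all genes (4.78% higher and 13.7% lower). Bhlha9 rose the most, by a log2 fold change of 0.67. Fgf8, Fgf4 and Sp6 also had higher means in Pitx1 null, but they did not pass the threshold, and Trp63 stood at nearly the same level in both genotypes. Of 18 surface ectoderm markers 5 were called higher in Pitx1 null at this stage and 0 lower by limma, with 12 higher and 0 lower at an unadjusted p under 0.05 and in the authors' deposited table. Of the 10 genes 2 were called, both higher, while 13.1% of all 14027 listed genes were called (4.73% higher and 8.41% lower, or 664 and 1179 genes). Scaled by a trimmed mean the split over all genes was 1139 higher and 453 lower with 4 members higher, and scaled by median ratios 1326 and 403 with 4 members higher. Lower calls were 0 by limma and 1 at an unadjusted p under 0.05 (Sp9), and the authors' deposited table, with 8.47% of genes called lower, also called 0 of the members lower.

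The e11.0 libraries stood apart by run before they stood apart by genotype. Replicate 3 had 2.20 times the summed CPM of 18 surface ectoderm markers of replicates 1 and 2 in Pitx1 null, and 2.31 times in Pitx1 wild type. The sum was 710, 677 and 1529 CPM in Pitx1 null libraries, against 534, 620 and 1335 CPM in Pitx1 wild type ones, and none of the 18 markers was at 0 in any library. Limb mesenchyme markers in replicate 3 were at 0.728 times their level in replicates 1 and 2 in Pitx1 null and at 0.777 times in Pitx1 wild type. Erythroid markers were also higher in replicate 3, at 2.87 times in Pitx1 null and 1.83 times in Pitx1 wild type. All 9 ectodermal members were higher in replicate 3 as well: replicate 3 was at 1.54 (Sp9) to 2.47 (Bhlha9) times the others in Pitx1 null and at 1.64 (Fgf9) to 2.44 (Bhlha9) times in Pitx1 wild type. Fgf10, the mesenchymal ligand, was lower in replicate 3, at 0.553 times in Pitx1 null and 0.664 times in Pitx1 wild type. In these whole buds, more ectodermal cells and more RNA per ectodermal cell cannot be told apart. Neither can be told apart from a difference of run or library, since replicate 3 of both genotypes came from another run.

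Bhlha9 was at 25.4, 22.1 and 58.7 CPM in Pitx1 null, against 13.3, 16.1 and 35.8 CPM in Pitx1 wild type. Within each run the Pitx1 null libraries were above the wild type ones, by 1.91, 1.38 and 1.64 times in the same-numbered pairs, and the groups overlap only because replicate 3 of wild type is high. The log2 fold change was 0.67 ± 0.10 SE (limma adjusted p = 0.00402), and it passed in each of the 6 fits that left out 1 library (0.60 to 0.75). These fits are not all separate. With the run term, leaving out replicate 3 of either group gives the fold change of replicates 1 and 2 alone (0.66 for Bhlha9). The same holds in every comparison. Per 1000 CPM of summed surface ectoderm markers, Bhlha9 stood at 35.8, 32.7 and 38.4 in Pitx1 null, against 24.8, 25.9 and 26.8 in Pitx1 wild type, and here the groups do not overlap. With all libraries scaled by that sum, a setting chosen after the data had been seen, the fold change of Bhlha9 was 0.44 (limma adjusted p = 0.00495), where the median of all genes was -0.29.

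Sp8, a zinc finger factor needed for Fgf8 and for the ridge, was at 33.2, 31.3 and 56.6 CPM in Pitx1 null, against 24.4, 27.2 and 48.9 CPM in Pitx1 wild type. Each null library was above its same-numbered wild type library (log2 fold change 0.28 ± 0.08, limma adjusted p = 0.046). The call was lost in 5 of the 6 fits without 1 library (adjusted p = 0.138 to 0.19), every one except that without Pitx1 wild type replicate 2. Per 1000 CPM of ectoderm markers, Sp8 was at 46.8, 46.1 and 37.0 in Pitx1 null, against 45.7, 43.9 and 36.6 in Pitx1 wild type, and scaled by the ectoderm sum its fold change was 0.04 (limma adjusted p = 0.821).

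Fgf8 was at 60.8, 57.9 and 129 CPM in Pitx1 null, against 43.4, 54.9 and 112 CPM in Pitx1 wild type. All 3 same-numbered pairs were higher in Pitx1 null, as they were for 19.2% of all genes, yet the fold change of 0.25 ± 0.09 did not pass (limma adjusted p = 0.0748). It passed with the replicate number as a block (limma adjusted p = 0.0381). The level of Fgf8 followed the ectoderm markers closely: per 1000 CPM of their sum it was 85.6, 85.4 and 84.6 in Pitx1 null, against 81.4, 88.5 and 83.7 in Pitx1 wild type. Wild type values span those of Pitx1 null.

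Fgf4, made by the posterior ridge, was at 10.8, 10.55 and 17.9 CPM in Pitx1 null, against 7.40, 8.51 and 16.5 CPM in Pitx1 wild type (0.29 ± 0.10, limma adjusted p = 0.076). Sp6, which acts together with Sp8 in the ectoderm, was at 44.9, 32.0 and 93.7 CPM in Pitx1 null, against 25.0, 36.3 and 70.5 CPM in Pitx1 wild type (0.35 ± 0.14, limma adjusted p = 0.108), with replicate 2 lower in Pitx1 null. The authors' deposited table called 5 members higher at e11.0, where it called 20.6% of all genes, 12.2% higher: Bhlha9, Sp8, Fgf4, Fgf8 and Sp6. Without Pitx1 wild type replicate 2, which was above wild type replicate 1 for Fgf8, Fgf4 and Sp6, 6 members were called, and without any other single library only Bhlha9 was.

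Trp63, the p53 relative on which stratified ectoderm depends, was at 62.1, 57.5 and 106 CPM in Pitx1 null, against 55.1, 62.1 and 106 CPM in Pitx1 wild type (0.02 ± 0.07, limma adjusted p = 0.835). Set against Trp63 in the same library, Bhlha9 was at 0.409, 0.385 and 0.552 in Pitx1 null and at 0.241, 0.259 and 0.339 in Pitx1 wild type, with no overlap. Fgf9 was at 3.61, 3.15 and 5.96 CPM in Pitx1 null, against 3.80, 3.74 and 6.18 CPM in Pitx1 wild type (-0.10 ± 0.11, limma adjusted p = 0.537). Fgf17 was at 1.81, 1.82 and 3.47 CPM in Pitx1 null, against 0.617, 2.07 and 3.06 CPM in Pitx1 wild type (0.27 ± 0.20, limma adjusted p = 0.351). Its fold change rests on wild type replicate 1, the lowest library, and was -0.01 without it. Sp9 was at 1.86, 1.13 and 2.31 CPM in Pitx1 null, against 1.80, 2.19 and 3.57 CPM in Pitx1 wild type (-0.34 ± 0.14, limma adjusted p = 0.121). Scaled by ectoderm markers it was called lower (-0.50, limma adjusted p = 0.00923), where the median of all genes was -0.29.

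Fgf10 was at 17.2, 15.5 and 9.04 CPM in Pitx1 null e11.0 hindlimbs, against 14.9, 11.51 and 8.75 CPM in Pitx1 wild type. Each null library was above its same-numbered partner, but by 0.21 ± 0.12 on the log2 scale, which did not pass (limma adjusted p = 0.208). Of 10 limb mesenchyme markers 5 were called lower and 0 higher by limma at the same time. In the other direction, 1 was higher at an unadjusted p under 0.05 and 1, Hoxa11, in the authors' deposited table. Their summed level was 1009 to 1388 CPM in Pitx1 null and 1349 to 1770 CPM in Pitx1 wild type. Scaled by that sum, also chosen after the data had been seen, the fold change of Fgf10 was 0.54 (limma adjusted p = 0.00199), where the median of all genes was 0.24. Endothelial markers were lower as well, 7 of 8 by test, at 98.0 to 191 CPM in Pitx1 null and 179 to 254 CPM in Pitx1 wild type. The part of tissue makeup in these differences was not tested beyond these scalings.

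**Figure D2:**
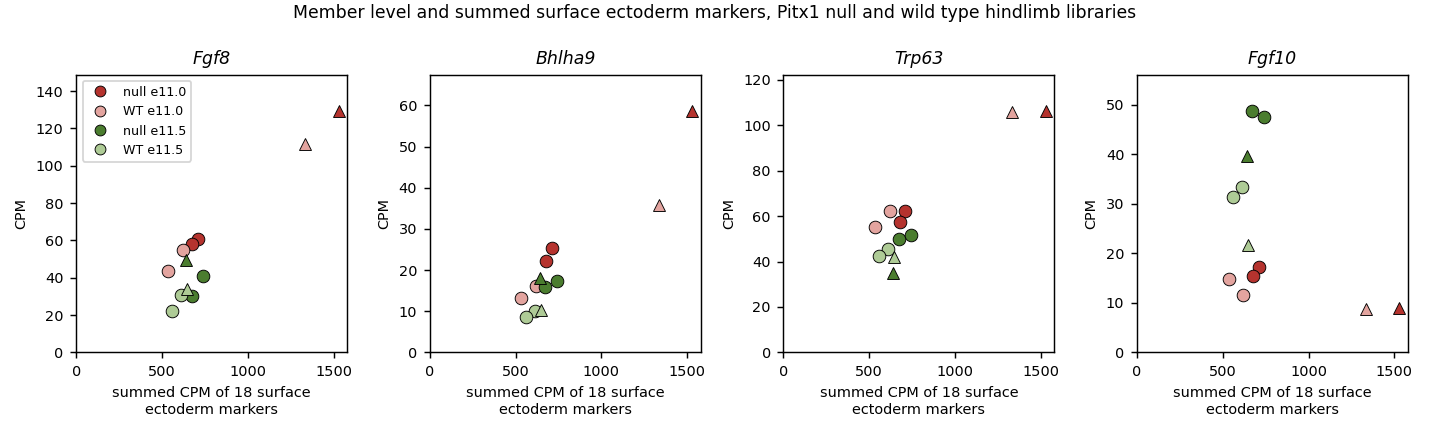
CPM of Fgf8, Bhlha9, Trp63 and Fgf10 (y axes) against the summed CPM of 18 surface ectoderm markers (x axes) in the 12 Pitx1 null and wild type hindlimb libraries, with triangles for replicate 3. Replicate 3 at e11.0 lies far to the right, at 1529 CPM in Pitx1 null and 1335 CPM in wild type, with high Fgf8, Bhlha9 and Trp63 and low Fgf10.

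Receptors and response genes were set beside the members at e11.0. Of 6 listed genes of the Fgf receptor list 2 were lower in Pitx1 null and 0 higher by limma (0 also at an unadjusted p under 0.05 and in the authors' deposited table): Fgfr1, the main receptor of limb mesenchyme (-0.47 ± 0.14, limma adjusted p = 0.0449), and Fgfrl1, a receptor without a kinase domain (-0.40 ± 0.10, adjusted p = 0.0283). Fgfr2, the receptor of Fgf10, was at 130, 130 and 205 CPM in Pitx1 null, against 112, 129 and 207 CPM in Pitx1 wild type (0.07 ± 0.07, limma adjusted p = 0.513). Of 12 Fgf response genes 2 fell, Dusp6, a phosphatase that ERK signalling induces (-0.42 ± 0.07, limma adjusted p = 0.00852), and Il17rd, a feedback inhibitor (-0.52 ± 0.13, adjusted p = 0.033). The median of the response list was -0.04 and that of all genes -0.07. Spry4, another feedback inhibitor, did not pass (0.09 ± 0.12, limma adjusted p = 0.6).

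Wnt3, the ectodermal Wnt upstream of Fgf8 in the mouse, was at 20.2, 18.6 and 46.4 CPM in Pitx1 null e11.0 hindlimbs, against 13.8, 16.4 and 33.9 CPM in Pitx1 wild type (0.38 ± 0.09, limma adjusted p = 0.0285). It was 1 of 19 ridge induction genes called higher, and 3 were lower, among them Msx1, a homeobox gene of Bmp signalling (-0.40 ± 0.10, adjusted p = 0.034). Grem1, which encodes Gremlin 1, fell by 0.38 on the log2 scale (limma adjusted p = 0.0283), with Hand2, the posterior factor upstream of Shh (-0.49 ± 0.08), and Gli3, the transducer of Hedgehog signals (-0.66 ± 0.12), 3 of 9 genes of that loop. Shh was at 6.69, 3.70 and 3.15 CPM in Pitx1 null, against 5.71, 7.65 and 7.39 CPM in Pitx1 wild type (-0.57 ± 0.20, limma adjusted p = 0.0751). Tbx4, the T-box gene of the hindlimb that acts with Pitx1 upstream of Fgf10, fell by 1.19 on the log2 scale, and Isl1, which starts the hindlimb field, rose by 0.50 ± 0.11 (limma adjusted p = 0.0203).

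At e11.5, Fgf10, Bhlha9 and Sp8 rose and Fgf9 fell in Pitx1 null hindlimbs, 4 of 10 genes, while 10.8% of all 13478 listed genes were called (2.83% higher and 7.96% lower, or 382 and 1073 genes). Scaled by a trimmed mean the split over all genes was 691 higher and 917 lower with 5 members higher and 1 lower, and scaled by median ratios 743 and 919 with 6 members higher and 1 lower. Fgf4, Fgf8 and Sp6 had higher means in Pitx1 null but did not pass in the main limma fit. Over all 19 settings Fgf4 was called in 7, Fgf8 in 6 and Sp6 in 6. Scaled by median ratios they passed (limma adjusted p = 0.0395 for Fgf4, 0.0371 for Fgf8 and 0.0492 for Sp6), and scaled by a trimmed mean Fgf4 and Fgf8 did. The median fold change of the 10 genes was 0.37 and that of all genes -0.02. In CPM, 4 of the 10 did not overlap between the genotypes, Fgf10, Bhlha9 and Fgf17 above and Fgf9 below, against 16.5% of all genes (5.48% higher and 11% lower). The summed surface ectoderm markers ranged from 641 to 741 CPM in Pitx1 null and from 559 to 646 CPM in Pitx1 wild type, with 2 of 18 called higher, Tfap2c and Cldn6, and 0 lower by limma (0 also at an unadjusted p under 0.05 and in the authors' deposited table). The limb mesenchyme sum ranged from 2019 to 2595 CPM in Pitx1 null and from 2075 to 2423 CPM in Pitx1 wild type. Of its 10 markers 5 were called higher in Pitx1 null, 4 of the 10 lay above wild type without overlap, and 0 were called lower by limma (2 at an unadjusted p under 0.05 and 0 in the authors' deposited table). The part of these markers in the results was not tested beyond scaling by their sums. At this stage scaled values are given beside Fgf10, Bhlha9, Sp8 and Sp9 alone.

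Fgf10 was at 48.8, 47.6 and 39.7 CPM in Pitx1 null e11.5 hindlimbs, against 33.4, 31.3 and 21.8 CPM in Pitx1 wild type. Every null library was above every wild type library. The log2 fold change was 0.65 ± 0.07 SE (limma adjusted p = 0.00123), it passed in all 6 fits without 1 library (0.56 to 0.70), and it was 0.63 when scaled by limb mesenchyme markers and 0.48 when scaled by ectoderm markers (limma adjusted p = 0.000152 and 0.0026), where the median of all genes was -0.04 and -0.18. Per 1000 CPM of the mesenchyme markers Fgf10 stood at 18.8, 20.0 and 19.7 in Pitx1 null, against 13.8, 13.3 and 10.49 in Pitx1 wild type. An antisense gene, Gm16263, overlaps 2.67% of the exon bases of Fgf10 and is not listed in any table.

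Bhlha9 was at 15.8, 17.4 and 18.1 CPM in Pitx1 null, against 10.2, 8.51 and 10.3 CPM in Pitx1 wild type, again with no overlap. Its fold change of 0.76 ± 0.08 (limma adjusted p = 0.00123) was the highest of the 10 genes at this stage, as at e11.0, and passed in all 6 fits without 1 library (0.70 to 0.83). Per 1000 CPM of ectoderm markers it was at 23.5, 23.4 and 28.2 in Pitx1 null, against 16.6, 15.2 and 15.9 in Pitx1 wild type. Scaled by that sum the fold change was 0.60 (limma adjusted p = 4.11e-05).

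Fgf9 was at 4.20, 3.44 and 1.68 CPM in Pitx1 null, against 6.02, 5.54 and 4.86 CPM in Pitx1 wild type. Each null library was below each wild type library, by the widest margin in replicate 3 (log2 fold change -0.71 ± 0.14, limma adjusted p = 0.0147). The call was lost without Pitx1 null replicate 2 and without replicate 3 of either genotype (adjusted p = 0.079, 0.06 and 0.0661), with fold changes between -0.70 and -0.50. Sp8 was at 22.7, 23.5 and 18.6 CPM in Pitx1 null, against 19.1, 15.8 and 16.0 CPM in Pitx1 wild type (0.33 ± 0.08, limma adjusted p = 0.0382), with null replicate 3 below wild type replicate 1. Its call was lost in 5 of the 6 fits without 1 library, kept only without Pitx1 wild type replicate 1, and scaled by ectoderm markers it was 0.16 (limma adjusted p = 0.352).

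Fgf8 was at 30.4, 40.8 and 49.3 CPM in Pitx1 null e11.5 hindlimbs, against 30.6, 22.2 and 34.0 CPM in Pitx1 wild type. Replicate 1 was nearly equal in both genotypes and the others were higher in Pitx1 null, so the groups overlap (0.45 ± 0.13, limma adjusted p = 0.0559). It passed without Pitx1 null replicate 1 (0.58, limma adjusted p = 0.0166) and without Pitx1 wild type replicate 1 (0.59, adjusted p = 0.0263). Fgf4 was low, at 1.36, 2.43 and 3.86 CPM in Pitx1 null, against 1.01, 1.07 and 2.39 CPM in Pitx1 wild type (0.49 ± 0.14, limma adjusted p = 0.0532), and passed with the replicate block (limma adjusted p = 0.0408) and without Pitx1 null replicate 1 (adjusted p = 0.00945). Fgf17 was at 1.26, 1.30 and 1.64 CPM in Pitx1 null, against 1.01, 1.10 and 1.20 CPM in Pitx1 wild type, higher in every null library but not past the test (0.19 ± 0.10, limma adjusted p = 0.229).

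Sp6 showed the sharpest break between runs. It was at 37.3, 36.5 and 1.81 CPM in Pitx1 null e11.5 hindlimbs, against 24.7, 21.8 and 1.90 CPM in Pitx1 wild type. The unstranded replicate 3 was thus at 0.0490 times the others in Pitx1 null and at 0.0817 times in Pitx1 wild type, while the ectoderm sum of those libraries was at 0.907 and 1.10 times. In GENCODE M21, 86.7% of the exon bases of Sp6 (3329 bases, chromosome 11) are also exon of Gm11532 on the other strand, which is not listed in any table, and whether counting used strand is not given in the sources used here. The effect of strand on this value was not tested. Over all 3 pairs Sp6 did not pass (0.42 ± 0.13, limma adjusted p = 0.0757), and with replicates 1 and 2 alone it was higher in Pitx1 null by 0.65 (limma adjusted p = 0.00299).

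Trp63 was at 49.9, 51.7 and 34.9 CPM in Pitx1 null e11.5 hindlimbs, against 45.4, 42.4 and 42.1 CPM in Pitx1 wild type (0.05 ± 0.09, limma adjusted p = 0.749). Null libraries were both the highest and the lowest. Sp9 was at 3.74, 3.31 and 2.24 CPM in Pitx1 null, against 4.02, 3.61 and 3.24 CPM in Pitx1 wild type (-0.19 ± 0.10, limma adjusted p = 0.246), and -0.33 scaled by ectoderm markers (limma adjusted p = 0.0448), where the median of all genes was -0.18. Of its exon bases 5.35% are also exon of Cir1, a listed gene on the other strand. The authors' deposited table called 6 members higher and Fgf9 lower at e11.5, where it called 8.73% of all genes higher and 10.9% lower. The 3 it added were Fgf4, Fgf8 and Sp6, which it had also called higher at e11.0.

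**Figure D3:**
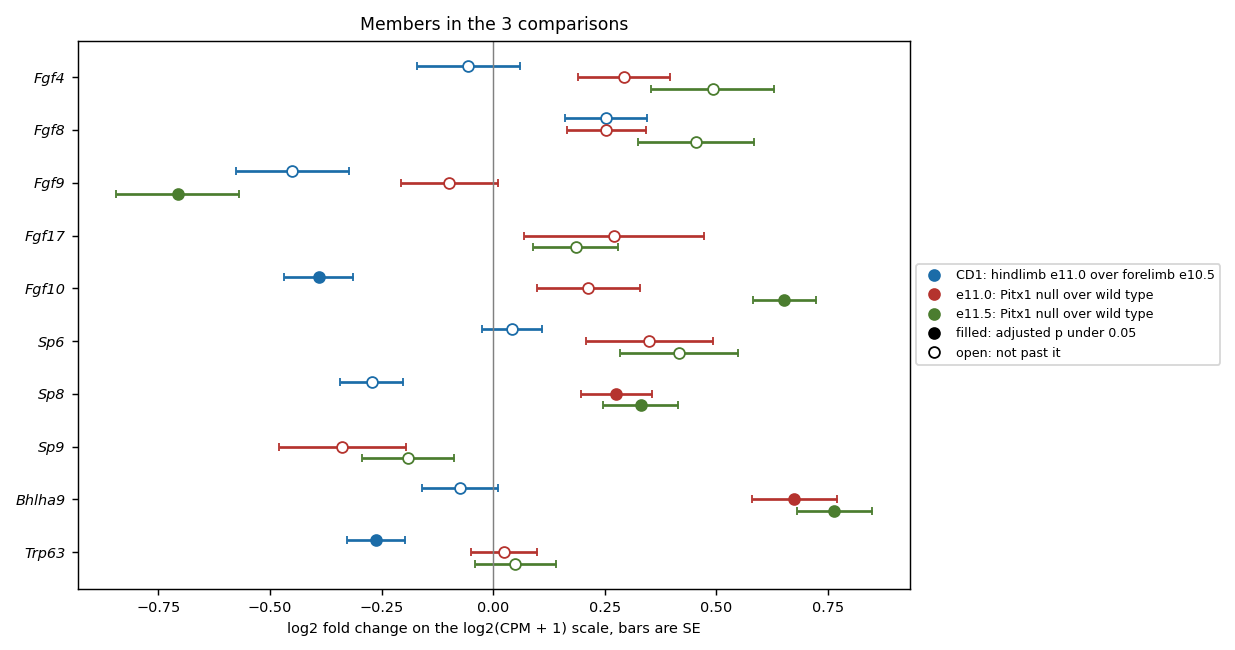
Log2 fold change (x axis) with SE bars of each of the 10 genes (y axis) in the 3 comparisons, CD1 hindlimb over forelimb and, for e11.0 and e11.5, Pitx1 null over wild type, filled where the limma adjusted p was under 0.05. Bhlha9 lies at 0.67 and 0.76 in Pitx1 null at the 2 stages and at -0.07 in CD1, and Fgf10 at 0.65 in Pitx1 null at e11.5 and at -0.39 in CD1.

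Genes of Fgf signalling differed in both directions at e11.5. Of 12 response genes 3 were higher in Pitx1 null, the feedback inhibitors Spry4 (0.47 ± 0.07, limma adjusted p = 0.00491) and Spry1 (0.38 ± 0.08, adjusted p = 0.0177) and the Ets factor Etv4 (0.40 ± 0.08, adjusted p = 0.0181), and Spry2 was lower (-0.28 ± 0.06, adjusted p = 0.0263). Dusp6 was at 232, 234 and 232 CPM in Pitx1 null, against 281, 252 and 248 CPM in Pitx1 wild type (-0.16 ± 0.05, limma adjusted p = 0.087). Of 7 receptor genes 3 were lower and 0 higher by limma (0 also at an unadjusted p under 0.05 and in the authors' deposited table). Fgfr4, a receptor known from muscle precursors, was at 1.95, 1.43 and 1.57 CPM in Pitx1 null, against 3.97, 4.42 and 4.76 CPM in Pitx1 wild type (-1.03 ± 0.11, limma adjusted p = 0.00123), and Fgfr1 differed by -0.19 ± 0.04 (adjusted p = 0.0334) and Fgfrl1 by -0.22 ± 0.06. Of 4 other listed ligands 1 fell, Fgf18, at 6.15, 5.53 and 1.42 CPM in Pitx1 null, against 10.6, 12.4 and 7.51 CPM in Pitx1 wild type (-1.18 ± 0.17, limma adjusted p = 0.00491).

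Of 19 ridge induction genes 5 were higher in Pitx1 null at e11.5: Bmp7 (0.47 ± 0.05, limma adjusted p = 0.00169), Bmp4 (0.37 ± 0.05), Msx1 (0.30 ± 0.05), Msx2 (0.48 ± 0.09) and Lef1, the Wnt effector (0.22 ± 0.06). Cd44, a surface protein of the ridge, was lower (-0.29 ± 0.08, limma adjusted p = 0.0463, and 0.0534 with the replicate block). Bmp4 was at 87.0, 86.0 and 90.6 CPM in Pitx1 null, against 69.4, 62.8 and 71.8 CPM in Pitx1 wild type, with no overlap. Grem1 was at 112, 102 and 77.3 CPM in Pitx1 null, against 80.4, 77.8 and 61.4 CPM in Pitx1 wild type (0.40 ± 0.05, limma adjusted p = 0.00364), higher in each same-numbered pair. Shh was at 17.7, 19.3 and 12.9 CPM in Pitx1 null, against 19.1, 16.6 and 14.8 CPM in Pitx1 wild type (-0.03 ± 0.09, limma adjusted p = 0.846). Tbx4 fell by 1.23 on the log2 scale, while Fgf10, a gene it is known to act on, rose.

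**Figure D4:**
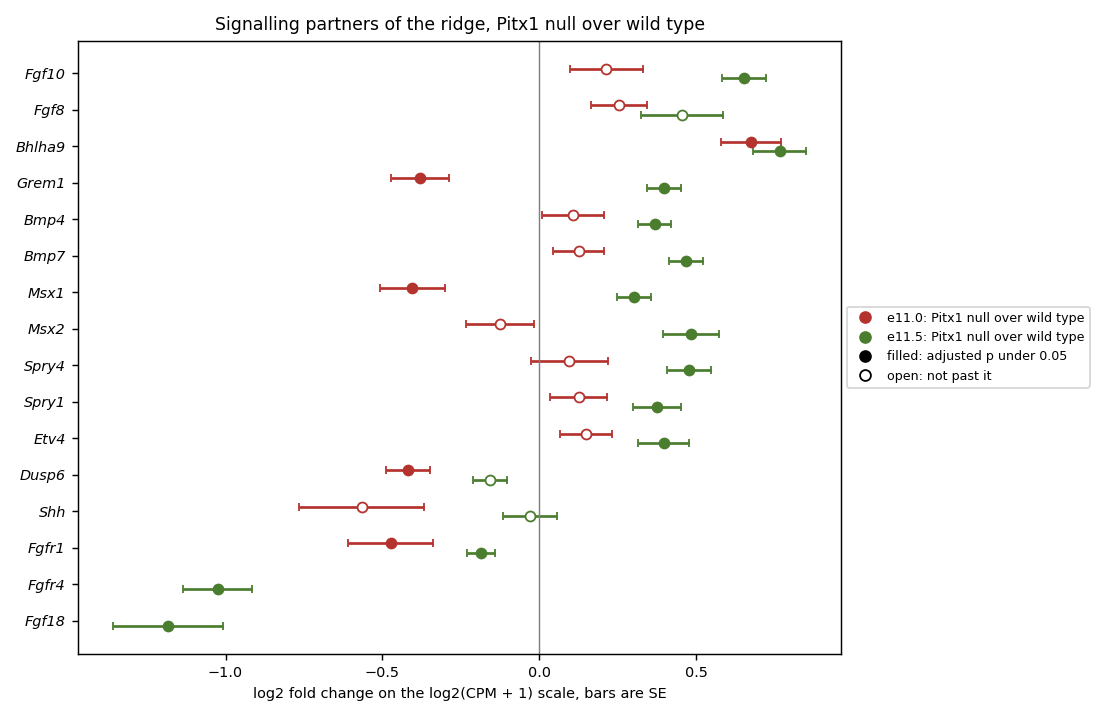
Log2 fold change (x axis) with SE bars of Fgf10, Fgf8, Bhlha9 and genes that signal with the ridge (y axis), Pitx1 null hindlimb over wild type hindlimb at the stages e11.0 and e11.5, filled where the limma adjusted p was under 0.05. Grem1 and Msx1 lie on opposite sides of 0 at the 2 stages (-0.38 and 0.40, -0.40 and 0.30), and Fgfr4 and Fgf18 have no point at e11.0 because they are not listed there.

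Setting CD1 hindlimb against forelimb asks how the same genes stand in hindlimb and forelimb buds of wild type embryos. Every hindlimb library was at e11.0 and every forelimb library at e10.5, so a difference of limb and a difference of age cannot be told apart. Fgf10 and Trp63 were lower in hindlimb, 2 of the 8 listed members, where 5.87% of all 13540 genes were called (2.41% higher and 3.46% lower). Higher calls were 0 by limma, with 1 at an unadjusted p under 0.05 (Fgf8), and the authors' deposited table called 0 higher and 4 lower (Fgf9, Fgf10, Sp8 and Trp63), where it called 4.75% of all genes higher and 7.73% lower. The same 4 genes did not overlap between the groups, each lower in hindlimb, as were 5.32% of all genes.

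Fgf10 was at 16.4, 19.5 and 15.9 CPM in CD1 hindlimb, against 24.9, 23.4 and 20.4 CPM in CD1 forelimb, every hindlimb library below every forelimb one (-0.39 ± 0.08, limma adjusted p = 0.0157). The call was lost without hindlimb replicate 1 (adjusted p = 0.0839) and without replicate 3 of hindlimb or forelimb (adjusted p = 0.0741 and 0.0756), with the fold change between -0.41 and -0.32. Limb mesenchyme markers ranged from 1699 to 2036 CPM in hindlimb and from 1834 to 2327 CPM in forelimb, and scaled by them Fgf10 differed by -0.23 (limma adjusted p = 0.0313), where the median of all genes was 0.16. Trp63 was at 33.1, 34.9 and 28.4 CPM in hindlimb, against 39.4, 38.0 and 38.4 CPM in forelimb (-0.26 ± 0.06, limma adjusted p = 0.0443). It did not pass with the replicate block (adjusted p = 0.0859) or in 5 of the 6 fits without 1 library, the exception being that without forelimb replicate 1. Of 17 listed surface ectoderm markers 0 were called by limma, 3 higher and 2 lower at an unadjusted p under 0.05 and 2 higher and 1 lower in the authors' deposited table, and their sum ranged from 390 to 485 CPM in hindlimb and from 414 to 481 CPM in forelimb.

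Fgf9 was at 3.21, 2.52 and 2.71 CPM in CD1 hindlimb, against 4.62, 3.43 and 4.64 CPM in forelimb (-0.45 ± 0.13, limma adjusted p = 0.0711), and passed with the replicate block (adjusted p = 0.0468) and without forelimb replicate 2 (adjusted p = 0.0362). Sp8 was at 15.3, 16.2 and 14.9 CPM in hindlimb, against 19.3, 17.8 and 19.6 CPM in forelimb (-0.27 ± 0.07, limma adjusted p = 0.0564). Fgf8 stood the other way, at 35.6, 39.7 and 31.6 CPM in hindlimb, against 27.8, 28.6 and 32.8 CPM in forelimb (0.25 ± 0.09, limma adjusted p = 0.143). Its replicates 1 and 2 were higher in hindlimb and replicate 3 was not, and with replicates 1 and 2 alone the fold change was 0.40 (limma adjusted p = 0.0294).

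The remaining members were close in the CD1 limbs. Bhlha9 was at 9.77, 8.59 and 10.998 CPM in hindlimb, against 9.70, 8.94 and 12.6 CPM in forelimb (-0.07 ± 0.08, limma adjusted p = 0.647). Fgf4 was at 4.63, 5.32 and 3.86 CPM in hindlimb, against 4.27, 5.14 and 4.99 CPM in forelimb (-0.06 ± 0.12, limma adjusted p = 0.817). Sp6 was at 21.4, 20.8 and 13.1 CPM in hindlimb, against 20.5, 19.2 and 13.5 CPM in forelimb (0.04 ± 0.07, limma adjusted p = 0.756). For each of these genes hindlimb and forelimb values overlap.

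Around them, Fgfr2 fell in CD1 hindlimb, 106, 103 and 94.4 CPM against 122, 126.2 and 113 CPM in forelimb (-0.25 ± 0.04, limma adjusted p = 0.00832). Fgf2 was the single other ligand called of 3 listed, at 1.45, 1.93 and 1.32 CPM in hindlimb, against 4.77, 3.92 and 2.77 CPM in forelimb (-0.89 ± 0.12, limma adjusted p = 0.00235). Of 18 ridge induction genes 3 were lower, Msx2 (-0.81 ± 0.06), Lef1 (-0.40 ± 0.05) and Bmp7 (-0.26 ± 0.06, limma adjusted p = 0.0482, and 0.0722 with the replicate block), and 0 higher by limma, with 1 at an unadjusted p under 0.05 and 1 in the authors' deposited table. Of the 9 genes of the Shh and Gremlin loop 5 were higher in hindlimb, among them Shh, at 8.28, 8.79 and 12.0 CPM against 5.12, 4.94 and 7.28 CPM in forelimb (0.66 ± 0.08, limma adjusted p = 0.00105), and Grem1 (0.35 ± 0.07), while Gli3 was lower.

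Set side by side, the comparisons gave Bhlha9 fold changes of 0.67 and 0.76 in Pitx1 null at e11.0 and e11.5, and -0.07 in CD1 hindlimb. Fgf10 had 0.21, 0.65 and -0.39, Sp8 had 0.28, 0.33 and -0.27, Fgf8 had 0.25, 0.45 and 0.25, and Fgf9 had -0.10, -0.71 and -0.45. The comparisons share no libraries, and the difference between them was not tested because the tables were normalized separately. Likeness between genes was taken over all 18 libraries, with values centred within each table and run. Centring removes mean differences of run and library method but keeps those between the groups compared. The r values thus carry shared group differences, and the centred values are not independent of each other. The genes most like Fgf8 among 12597 were Notum (Pearson r = 0.925), Manf, St14, Tk1 and Ppp1r11. Those most like Fgf10 included Vegfd (r = 0.926), Set, Bmp7 and Ldha, and those most like Trp63 were Socs2 (r = 0.88), Paip1, Snap91, Fgfr2 and Fbxo16. Among the members the highest such value was that of Sp8 with Bhlha9 (r = 0.852). The lowest was that of Fgf8 with Fgf9 (r = -0.685). Fgf9 was below 0 with every other member compared except Trp63 (r = 0.434), and Fgf8 with Trp63 had 0.0733.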

How the data were processed

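RNA-seq of 18 limb bud libraries in 6 groups was deposited as 3 tables, 1 per comparison, each normalized separately. Reads were aligned with STAR, counted with featureCounts against GRCm38 (mm10) and modelled with edgeR, per the submitters' processing notes, and versions and the strand setting of counting are not given in the sources used here. The authors gave CPM per gene and library, each column summing to 1000000, and every listed gene reached at least 1 CPM in 3 libraries. The authors also deposited a log2 fold change, an average log2 CPM, a likelihood-ratio score, a p-value and an adjusted p-value per gene, per the file headers.

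For each table, log2(CPM + 1) values were modelled by group and run (replicates 1 and 2 against replicate 3) in limma 3.58.1 (R 4.3.3), whose prior variance followed the mean, leaving 3 residual degrees of freedom. All tests are two-sided, and p-values were adjusted by Benjamini-Hochberg over every gene of the table. CPM is not a count, so no count test was run and the authors' deposited adjusted p stands as the count-based alternative. Implied reads, which made 100% of values whole within 0.01 read, were used for depth alone. Symbols, exon lengths and overlaps came from GENCODE M21 (GRCm38). Calculations were checked on simulated data.

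Deviations from the group mean were correlated across genes between libraries with the same number. For CD1 the values of replicates 1, 2 and 3 were 0.686, 0.798 and 0.939. The e11.0 groups had 0.662, 0.637 and 0.855, and the e11.5 groups had 0.733, 0.83 and 0.914. All exceeded 0.1, and the numbers were taken to pair the samples. These values cannot show pairing, because libraries of different number in the shared run also correlated. CD1 hindlimb replicate 1 had 0.852 with forelimb replicate 2, above its value with forelimb replicate 1, and hindlimb replicate 2 had 0.748 with forelimb replicate 1. For the Pitx1 groups such crossed values were below the same-numbered ones: 0.407 and 0.529 (e11.0), then 0.627 and 0.632 (e11.5). The pairing rests on the replicate numbers in the titles alone, and the titles do not say that samples of the same number belong together. The main fit modelled group and run and did not use these pairs.

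The genes and lists were chosen with earlier results of these data known. All 10 members are named, and from each other list at most 6 called genes of lowest adjusted p, plus fixed ligands, receptors and hindlimb factors. Likeness used genes with mean CPM of at least 1 in each table. 1 of the genes most like Fgf10 is not reported here. Alternatives were the pseudocount (0.25 or 4), a mean CPM of at least 2, no run term, a replicate block, other scalings, replicates 1 and 2 alone, no mean-dependent prior and leaving out each library.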

Additional observations from a re-analysis of the deposited data

Results flagged for a closer look

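Grem1 and Msx1 stood on opposite sides in Pitx1 null hindlimbs at the 2 stages, with every same-numbered pair lower at e11.0 and every pair higher at e11.5, and both were called at both stages. Grem1 had log2 fold changes of -0.38 at e11.0 (limma adjusted p = 0.0283) and 0.40 at e11.5 (limma adjusted p = 0.00364), and Msx1 had -0.40 (limma adjusted p = 0.034) and 0.30 (limma adjusted p = 0.0113). Msx1 is also 1 of the 10 limb mesenchyme markers. By limma 5 of these were lower and 0 higher at e11.0, and 0 lower and 5 higher at e11.5. Their summed level at e11.0 was 1009 to 1388 CPM in Pitx1 null and 1349 to 1770 CPM in Pitx1 wild type. At e11.5 it was 2019 to 2595 CPM in Pitx1 null and 2075 to 2423 CPM in Pitx1 wild type. Neither Grem1 nor Msx1 was scaled by that sum, and how many of all genes turn this way was not counted. Prrx2, another of the 10 markers, turned in every same-numbered pair as well (-0.24 and 0.37) but was called at e11.5 alone. The difference between the stages was not tested, because the tables were normalized separately and the e11.5 libraries were made by mRNA enrichment. No member turned in every same-numbered pair: Fgf10 was above wild type in every such pair at both stages, as was Bhlha9.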

How the results depend on the processing

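Bhlha9 at both Pitx1 stages and Fgf10 at e11.5 kept their direction under all 19 settings and their call under 18 of them. The run term bore on every call: without it limma called 0 members in each comparison (unadjusted counts are given with the tests) and 13 genes in all in CD1, 5 at e11.0 and 11 at e11.5. With the replicate block 3442 genes were called at e11.0, against 1843 without it, and beside the calls given above the block changed no other call of a member. The authors' deposited adjusted p called 4, 5 and 7 members in CD1, at e11.0 and at e11.5, and 1689, 2895 and 2644 genes. Replicates 1 and 2 alone gave 1 member in CD1 (Fgf8, higher) and 1 at e11.0, and 471, 199 and 483 genes. Without a mean-dependent prior 1 member was called in CD1 and 1 at e11.0, where 574 genes were called. Trimmed-mean scaling gave 4 members at e11.0, and median-ratio scaling 4 at e11.0 and 7 at e11.5. Scaled by ectoderm markers, 1 member was called in CD1, and 6633 genes at e11.0 and 2620 at e11.5. Scaled by mesenchyme markers, 8 members were called at e11.0 and 7 at e11.5, and 5389 genes in CD1 and 6769 at e11.0. These 2 scalings were chosen after the data had been seen. Leaving out each library in turn gave 0 to 2 members in CD1, 1 to 6 at e11.0 and 2 to 5 at e11.5, and 394 to 1191, 116 to 5273 and 433 to 2627 genes. The cause was not tested.

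Fold changes that turned were close to 0 in most cases. Fgf4 in CD1 was 0.068 with replicates 1 and 2 alone and 0.078 scaled by mesenchyme markers, where Bhlha9 was 0.076, and Fgf4 ranged from -0.154 to 0.068 over the fits without 1 library. At e11.0 Trp63 was -0.22 and Fgf10 -0.011 scaled by ectoderm markers, and Fgf9 was 0.19 scaled by mesenchyme markers. Over the fits without 1 library Trp63 ranged from -0.026 to 0.071 at e11.0 and from -0.022 to 0.207 at e11.5, and Fgf17 from -0.012 to 0.517 at e11.0. At e11.5 Trp63 was -0.12 scaled by ectoderm markers. Pseudocounts of 0.25 and 4 and a minimum mean of 2 CPM changed no count of members called by over 1.5 times. The planned edgeR and DESeq2 tests on whole reads were not run, since the tables hold CPM. With 3 libraries a group and genes as low as Fgf17 and Sp9, a p that misses the threshold does not show equal levels.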
